A study of Mus musculus with 32 samples.

Results

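The genes described here carry the IL-6 receptor signal and its brakes in wild-type mouse haematopoietic stem and progenitor cells (HSPCs). They are Clcf1, Il6ra, Il6st, Stat3, Stat5a, Stat5b, Socs1, Socs2, Socs3 and Cish. They were chosen by name, and an ATAC-seq peak, which marks open chromatin cut by a transposase, was assigned to one of them where it was the nearest protein-coding gene model of build GRCm38 within 50 kb. This gave 1035 of the 1054860 peaks in 16 peak lists. Such a link rests on distance alone, and the gene that a peak acts on is not known from it.

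The 16 lists came from 5 AF9-experienced LPS, 4 AF9-experienced PBS, 3 naive LPS and 4 naive PBS biological replicates. AF9-experienced mice were lethally irradiated C57BL/6J (CD45.2) hosts given 200000 CD45.1 marrow cells of iMLL-AF9 mice, homozygous both for hMLL-AF9, a leukaemia fusion gene induced by doxycycline, and for rtTA, the inducer, mixed with 800000 wild-type marrow cells (CD45.1+/2+). Naive mice were the same hosts given the same wild-type marrow with 200000 marrow cells (CD45.1) that were hMLL-AF9-null and homozygous rtTA. From 6 to 8 weeks later, doxycycline was given for 5 weeks to start leukaemia in fusion-bearing marrow, and was then withdrawn for 4 weeks to model remission. Mice received PBS or LPS, the endotoxin of Gram-negative bacteria, which is sensed by Toll-like receptor 4, and were killed 24 hours later. The sorted cells were donor HSPCs of genotype C57BL/6J (CD45.1+/2+), which are lineage-negative, cKit+ and Sca1+. They are wild-type bystanders that do not carry the fusion, in a mixed marrow. The dose of LPS, the ages of the mice and whether several mice were pooled for a library are not given in the sources used here.

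IL-6 binds its receptor chain IL-6Ra, the complex recruits the shared chain gp130 (Il6st), and JAK kinases bound to gp130 phosphorylate the transcription factor STAT3. STAT5A and STAT5B do the corresponding work for interleukin-3, erythropoietin and related cytokines that act on blood progenitors. STATs induce SOCS1, SOCS2, SOCS3 and CISH, which damp the same receptors and so form a negative feedback loop. In marrow, infection raises IL-6 and G-CSF, and STAT3 takes part in the emergency production of neutrophils that follows.

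Lists differed in length, and from each only the 19100 autosomal peaks with the highest -log10 p, as the authors gave it, were kept. Overlapping peaks were merged into regions. A library's value at a region is the percentile rank of the strongest peak it has there, with 100 the strongest and 0 no peak among the 19100. A value of 0 can still be a weaker peak of the full list, and a rank can move because other regions move. The 10 genes held 35 of the 31846 regions, and 30 of the 23554 regions found in at least 3 lists and tested. Of these 30 regions, 12 (40.0%) were in all 16 lists, against 10947 of all 23554 (46.5%). Of the 11 tested regions within 1 kb of an end of a gene model, 8 (72.7%) were in all 16 lists, against 73.1% of all 9968 such regions.

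The cell label and the libraries were checked first. Gene ends of the progenitor genes Kit (59.5 to 75.1), Cd34 (37.0 to 57.3), Flt3 (74.8 to 93.0) and Meis1 (32.1 to 65.6) had a peak in all 16 lists. The Sca1 gene Ly6a had none, and Gata2 had one in 1 list. Gene ends of 4 T-cell, 3 B-cell, 2 NK-cell and 5 granulocyte and monocyte markers were at 0 in all 16 lists. Of the erythroid markers, the globin gene Hbb-bs was at 0 throughout. The gene end of Epor, the erythropoietin receptor, was at 73.6 to 86.2 in AF9-experienced LPS against 66.3 to 74.8 in AF9-experienced PBS, and at 70.7 to 80.5 in naive LPS against 31.7 to 69.3 in naive PBS. Of 4 endothelial and stromal markers, Cdh5, Lepr and Cxcl12 were at 0 throughout, and Pecam1 was 14.5 to 25.8 in AF9-experienced LPS against 0 to 14.8 in AF9-experienced PBS, and 0 to 2.74 in naive LPS against 0 to 19 in naive PBS. Full lists held 60841 to 88816 peaks, except AF9-experienced PBS 1 (25685), naive LPS 3 (39464) and naive PBS 1 (19448). The authors' median fold enrichment in the shortened lists was 9.16 to 13.6 in the longer LPS lists and 13.9 to 19.4 in the longer PBS lists. It was 5.34 in AF9-experienced PBS 1, 6.58 in naive LPS 3 and 5.07 in naive PBS 1. All 3 naive LPS lists and AF9-experienced LPS 1 and 2 held 2 or 3 peaks on chromosome Y, and the others held 0 or 1. The part of the erythroid, endothelial and stromal markers, of the fold enrichment and of the chromosome Y peaks in the differences described here was not tested, beyond the fits named with the results.

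The promoter sequences of 3 genes are shown. In the main fit, which used the shortened lists of all libraries, the regions at these promoters gave no call after LPS. Socs3 is the feedback inhibitor of gp130, Cish is the gene with the region that stood higher after LPS, and Stat3 has the strongest promoter peak of the 10 genes. They are the 250 bases before the start listed by RefSeq on GRCm38.p6, read 5′ to 3′ on the gene's own strand, and each lies whole within a region of the peak lists. Capitals mark the STAT motif TTCNNNGAA.
Socs3: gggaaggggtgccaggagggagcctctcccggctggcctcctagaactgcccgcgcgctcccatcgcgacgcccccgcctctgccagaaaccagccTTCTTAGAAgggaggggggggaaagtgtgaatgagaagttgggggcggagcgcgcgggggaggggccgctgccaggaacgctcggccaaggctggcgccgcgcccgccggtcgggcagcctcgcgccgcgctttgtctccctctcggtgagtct
Cish: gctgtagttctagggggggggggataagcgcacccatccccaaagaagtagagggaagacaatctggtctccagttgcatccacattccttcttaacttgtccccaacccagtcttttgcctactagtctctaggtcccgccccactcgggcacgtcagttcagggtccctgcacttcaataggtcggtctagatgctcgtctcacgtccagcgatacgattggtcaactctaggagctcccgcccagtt
Stat3: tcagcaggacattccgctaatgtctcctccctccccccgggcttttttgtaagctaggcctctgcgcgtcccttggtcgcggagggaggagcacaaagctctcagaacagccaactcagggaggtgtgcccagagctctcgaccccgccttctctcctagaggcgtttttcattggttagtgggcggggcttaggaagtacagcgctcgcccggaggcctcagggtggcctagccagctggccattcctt

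The Socs3 stretch is chr11:117969367-117969616 on the minus strand, the Cish stretch is chr9:107296409-107296658 on the plus strand, and the Stat3 stretch is chr11:100939541-100939790 on the minus strand. The Socs3 promoter holds 1 match to the STAT motif, TTCTTAGAA, whose first base is at -154 from the listed start. RefSeq entries were matched for 8 of the 10 genes (10 promoters), and none was used for Clcf1 or Socs2. The search for TTCNNNGAA on both strands found 1 of these 10 promoters, against 7.02% of the 32851 promoters in the table. The AP-1 motif TGANTCA was in 0 of 10 against 6.75%, and the NF-kB motif was in 1 of 10 (Stat5a, first base at -234) against 7.25%. No match overlapped another, and a match describes letters in this window and is not a binding site.

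At these genes 4 regions were called after LPS in at least 1 kind of mouse, 24 hours after injection. Regions at Clcf1, Il6ra and Socs3 stood lower in LPS lists, and a region just past Cish stood higher. The Clcf1 and Cish regions were called in both kinds of mouse. The Il6ra region was called only in AF9-experienced mice and the Socs3 region only in naive mice. The lower regions had no peak in any shortened LPS list, so they entered the test only through PBS lists. Their LPS values of 0 show no spread, which limits what their p-values mean. The same limit holds for other regions below with a peak in only LPS or only PBS lists. In AF9-experienced mice, 1 of the 30 regions was higher and 2 were lower after LPS at a Benjamini-Hochberg adjusted p under 0.05 (limma, 16 libraries), where 3.44% of all tested regions were higher and 1.74% lower. In naive mice, 1 was higher and 2 were lower, where 2.00% of all were higher and 1.22% lower. Counts of 1 and 2 in 30 regions are too few to set these genes apart from the background. In AF9-experienced mice, all LPS libraries lay above all PBS libraries at 2 of the 30 regions (6.67%, against 5.48% of all). They lay below at 3 (10.0%, against 4.07%). In naive mice they lay above at 2 (6.67%, against 7.3%) and below at 4 (13.3%, against 4.99%). These counts are likewise small. None of the calls held in either kind of mouse when peaks were ranked by fold enrichment in place of -log10 p, in lists of 9550 peaks, where a peak had to cover 50% of a region, or when only presence in a list was compared. Calls over all regions were also fewer under these settings. In naive mice, ranking by fold enrichment called 2 of all 27041 regions higher and 2 lower. The 50% overlap called 129 of 22332 higher and 3 lower, and presence in full lists 16 of 88254 higher and 0 lower. In AF9-experienced mice these counts were 242 and 139, 273 and 32, and 79 and 26. Some of these settings could not keep a call. Lists of 9550 peaks left 13 regions of these genes tested, and the Socs3 peak ranked no better than 12071 in any full list. The Clcf1 and Cish peaks stood in all 16 full lists, so their presence there could not differ. Leaving out 1 library at a time gave 2 to 5 calls in AF9-experienced mice (5 without naive LPS 1, 2 without AF9-experienced PBS 3) and 1 to 3 in naive mice (1 without AF9-experienced LPS 2, naive LPS 1 or 2, or naive PBS 2, 3 or 4, and 2 without AF9-experienced LPS 4, AF9-experienced PBS 4 or naive LPS 3). The median difference over the 30 regions was 0.505 percentile points in AF9-experienced mice (all regions -0.178) and 1.04 in naive mice (all regions 0). In a bulk sample, a region open in fewer cells and a region less open in each cell cannot be told apart.

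**Figure D1:**
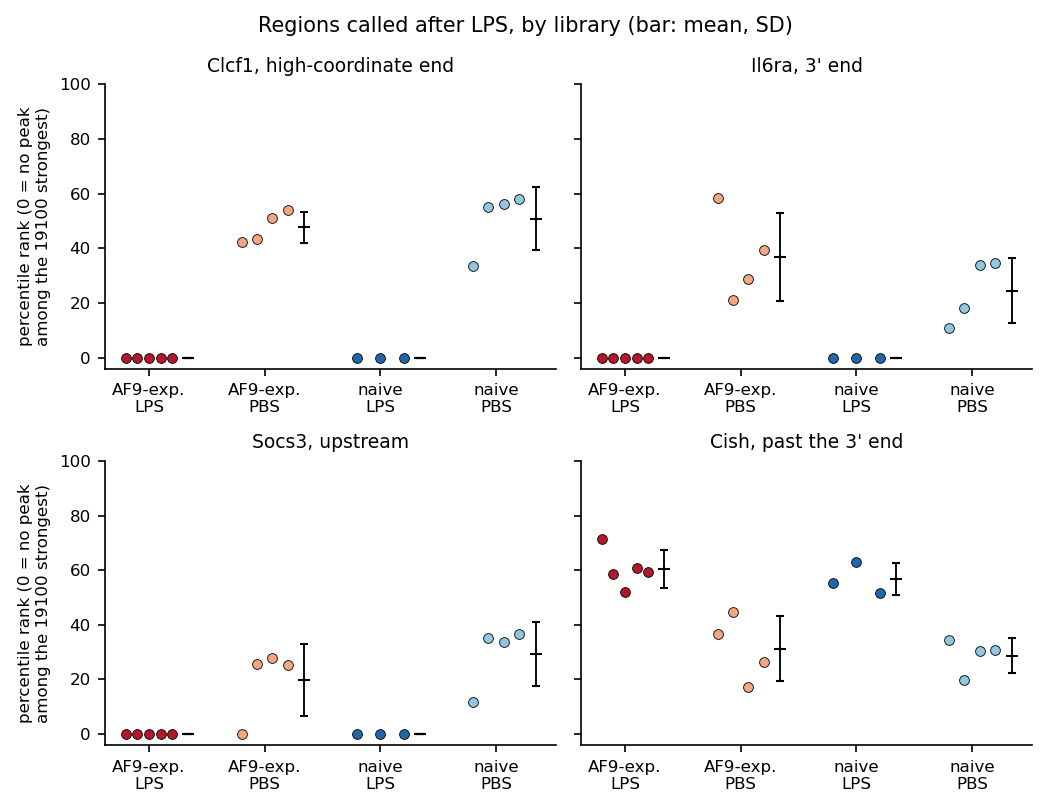
Percentile rank (vertical axis, 0 to 100) of the 4 regions called after LPS, 1 panel per region, with 1 point per library and the mean with its SD beside each group. The Clcf1 region and the Il6ra 3′ end were at 0 in all 8 LPS libraries, and the Cish region was at 51.6 to 71.3 in LPS libraries against 17.4 to 44.7 in PBS libraries.

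Clcf1 encodes cardiotrophin-like cytokine factor 1, a ligand of the IL-6 family that signals through gp130. Its region lies within the gene model, 0.6 kb from the high-coordinate end (chr19:4221274-4222908), and the next gene is Pold4, 9.0 kb away. It was at 0 in all 5 AF9-experienced LPS libraries, against 42.4, 43.3, 51.0 and 54.0 in AF9-experienced PBS. It was likewise at 0 in all 3 naive LPS libraries, against 33.7, 55.1, 56.4 and 58.2 in naive PBS. LPS and PBS groups did not overlap in either kind of mouse, as at 4.07% of all regions in AF9-experienced and 4.99% in naive mice in that direction. The region fell by 47.7 percentile points in AF9-experienced mice (SE 6.84; limma adjusted p = 0.000235) and by 50.8 in naive mice (SE 7.79; adjusted p = 0.00119). Both calls held when each of the 16 libraries was left out in turn, and neither held with peaks ranked by fold enrichment (-8.88, adjusted p = 0.387, and -8.997, adjusted p = 0.527).

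The Clcf1 peak did not vanish after LPS, as the full lists show. A peak was listed there in all 16 libraries, ranked 20517 to 29105 in AF9-experienced LPS against 8779 to 11004 in AF9-experienced PBS. In naive mice it ranked 21659 to 25674 after LPS against 7979 to 12670 after PBS. Its fold enrichment, the authors' value, was 4.60 to 7.42 in AF9-experienced LPS against 12.8 to 13.6 in the 3 longer AF9-experienced PBS lists. In the longer naive lists it was 5.53 to 6.36 after LPS against 10.8 to 13.9 after PBS. Divided by the median fold of the library's own list, these values were 0.457 to 0.564 in AF9-experienced LPS against 0.660 to 0.734 in AF9-experienced PBS, and 0.499 to 0.563 in naive LPS against 0.775 to 0.831 in naive PBS. The lower rank after LPS thus went with a lower fold, also relative to the other peaks of the same library. The other region of Clcf1, at the low-coordinate end of the gene model, had a peak in 3 lists, naive PBS 1 (46.7), AF9-experienced LPS 5 (8.52) and naive LPS 3 (6.92).

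**Figure D2:**
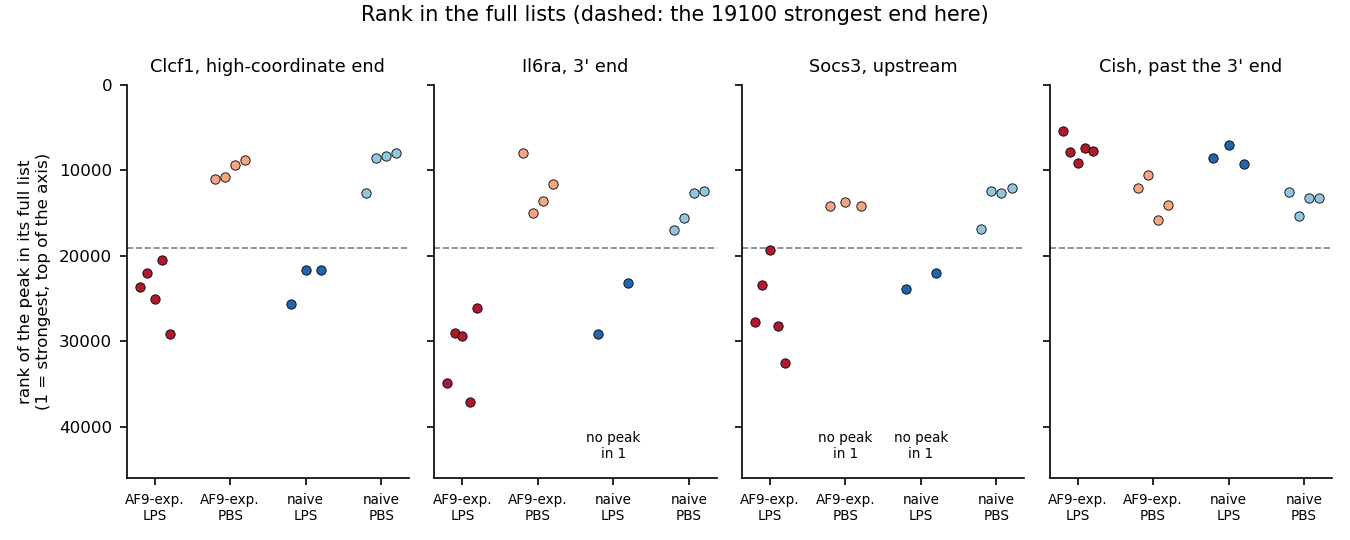
Rank in the full peak list (vertical axis, rank 1 is the strongest peak) at the same 4 regions, 1 point per library that lists a peak, with the dashed line at the 19100th peak. Clcf1 peaks of LPS libraries sit at ranks 20517 to 29105, past the dashed line, and those of PBS libraries at 7979 to 12670.

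Il6ra, the ligand-binding chain of the IL-6 receptor, had 5 regions. Its 3′ end (chr3:89869558-89870163, 0.2 kb inside the end of the model) was at 0 in all 5 AF9-experienced LPS libraries, against 58.4, 21.2, 29.0 and 39.3 in AF9-experienced PBS 1 to 4. It was at 0 in all 3 naive LPS libraries, against 11, 18.3, 34.0 and 34.8 in naive PBS 1 to 4. No LPS value reached a PBS value. The region fell by 37.0 points in AF9-experienced mice (SE 7.44; limma adjusted p = 0.00474), a call kept without any 1 of the 16 libraries. In naive mice the difference was -24.5 (SE 8.47; adjusted p = 0.128). In the full lists a peak stood there at ranks 26108 to 37067 in 5 of 5 AF9-experienced LPS libraries against 7948 to 15061 in AF9-experienced PBS. In naive mice 2 of 3 LPS libraries listed it, at 23241 to 29128, against 12452 to 16997 in all 4 PBS libraries.

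The 5′ end of Il6ra (chr3:89912167-89913773) gave no call. It stood at 57.4 to 63.8 in AF9-experienced LPS against 59.2 to 64.7 in AF9-experienced PBS, and at 55.3 to 68.2 in naive LPS against 51.1 to 63.7 in naive PBS. These ranges overlap, and the differences were -0.710 (adjusted p = 0.955) and 4.38 (adjusted p = 0.743). The other 3 Il6ra regions lie inside the gene and passed no test.

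Il6st encodes gp130, the signalling chain shared by most receptors of the IL-6 family. Its start (chr13:112463592-112464649) was one of the strong, even peaks of the set. It stood at 79.5 to 87.0 in AF9-experienced LPS against 82.3 to 87.1 in AF9-experienced PBS, and at 78.5 to 88.4 in naive LPS against 84.2 to 92.7 in naive PBS. The groups overlap, with differences of -1.48 (limma adjusted p = 0.806) and -4.61 (adjusted p = 0.479). A region 23.6 kb upstream of the start (chr13:112439340-112440488) was also in all 16 lists, and differed by 8.92 (adjusted p = 0.518) and 14 (adjusted p = 0.408).

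The 3 STAT genes lie side by side on chromosome 11, Stat5b at 100780731 to 100859004, Stat5a at 100859351 to 100885169 and Stat3 at 100886806 to 100939594. Stat3, the main transducer of the IL-6 signal, had the highest ranks of the 10 genes at its start (chr11:100938899-100940123). The values were 97.8 to 99.1 in AF9-experienced LPS against 93.5 to 98.2 in AF9-experienced PBS, and 98.1 to 99.4 in naive LPS against 93.6 to 99.9 in naive PBS. These values lie near the upper end of the scale. The differences of 2.56 (limma adjusted p = 0.376) and 2.59 (adjusted p = 0.510) did not pass.

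A pair of regions inside Stat3 had differences of opposite sign, neither past the test. The one 6.6 kb from the end (chr11:100893451-100894065) had 34.6, 42.5, 0, 0 and 20.1 in AF9-experienced LPS against 23.3, 49.2, 46.4 and 50.8 in AF9-experienced PBS. In naive mice it had 5.31, 18.9 and 10.1 after LPS against 6.23, 33.5, 37.5 and 47.5 after PBS. The ranges overlap, and the differences were -23.0 (adjusted p = 0.203) and -19.7 (adjusted p = 0.423). The one 4.4 kb from the end (chr11:100891247-100892019) differed by 15.9 (adjusted p = 0.198) and 11.4 (adjusted p = 0.520).

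Stat5a and Stat5b encode the near-identical pair of STAT5 proteins. The start of Stat5a (chr11:100860101-100861027) stood at 85.9 to 94.9 in AF9-experienced LPS against 87.4 to 92.1 in AF9-experienced PBS, and at 86.3 to 92.8 in naive LPS against 81.0 to 94.3 in naive PBS. The groups overlap, and the differences were -0.695 (limma adjusted p = 0.920) and 2.68 (adjusted p = 0.721). Stat5b had no region within 1 kb of an end of its gene model. Its strongest region (chr11:100850077-100851503), chosen after its values were seen, has its median summit 10 bases from a start listed by RefSeq inside the model. It had 63.3, 63.8, 53.6, 59.8 and 0 in AF9-experienced LPS against 21.8, 66.3, 70.8 and 67.8 in AF9-experienced PBS. It had 49.9, 43.3 and 73.8 in naive LPS against 30.1, 60.0, 55.4 and 67.0 in naive PBS. The groups overlap, with differences of -8.62 (adjusted p = 0.767) and 2.53 (adjusted p = 0.975). The Stat5b region with the smallest p in AF9-experienced mice (chr11:100822345-100822915) was weak and had 5.61, 18.4, 0, 0 and 0 in AF9-experienced LPS against 0, 17.7, 17.0 and 22.3 in AF9-experienced PBS. In naive mice it had 18.8, 0 and 0 after LPS against 0, 13.9, 2.40 and 0 after PBS, and the differences were -9.48 (adjusted p = 0.3997) and 2.17 (adjusted p = 0.934). The one with the smallest p in naive mice (chr11:100814367-100815035) differed by -8.07 in AF9-experienced mice (adjusted p = 0.654) and by -6.46 in naive mice (adjusted p = 0.821).

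**Figure D3:**
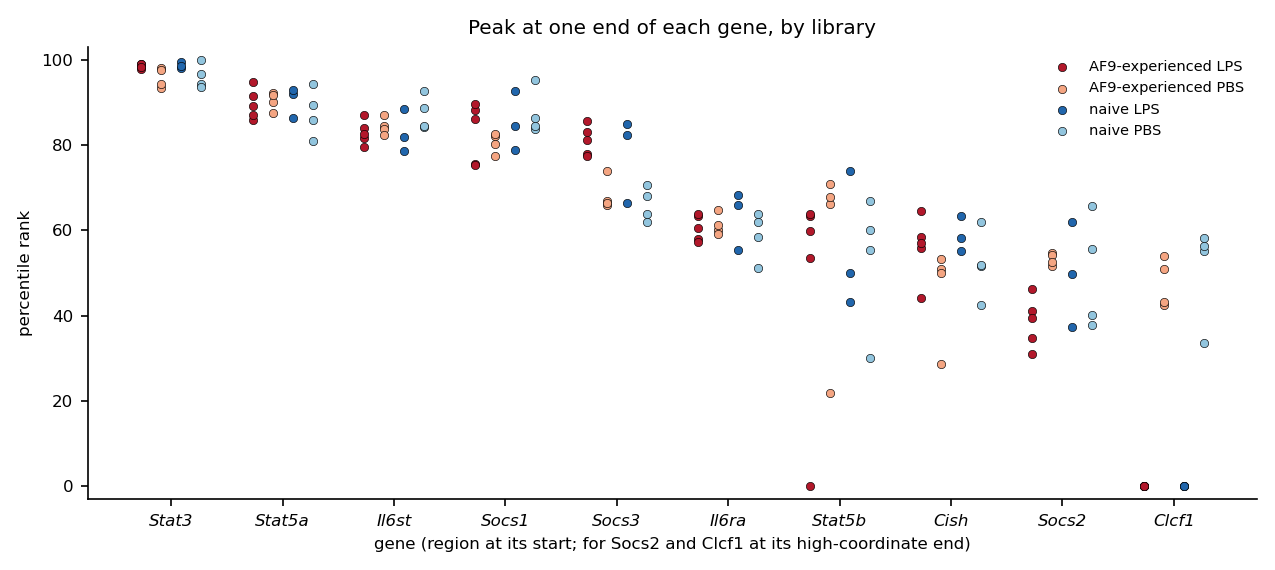
Percentile rank (vertical axis, 0 to 100) of the strongest gene-end region of each gene, or for Stat5b of its strongest region, with 1 point per library in each of the 4 groups. Stat3 sits at 93.5 to 99.9 and Stat5a at 81.0 to 94.9, while Socs2 sits at 31.0 to 65.7 and Clcf1 is at 0 in all LPS libraries.

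Among the inhibitors, Cish carried the region called higher. CISH, the cytokine-inducible SH2 protein, is a feedback inhibitor whose gene is a classic target of STAT5. The region lies 3.0 kb past the 3′ end (chr9:107305779-107306734), 15.9 kb from the next gene, Mapkapk3. It had 71.3, 58.7, 52.2, 60.9 and 59.5 in AF9-experienced LPS against 36.6, 44.7, 17.4 and 26.3 in AF9-experienced PBS. It had 55.2, 63.1 and 51.6 in naive LPS against 34.3, 19.7, 30.3 and 30.6 in naive PBS. Every LPS library was above every PBS library. The region rose by 29.3 percentile points in AF9-experienced mice (SE 6.55; limma adjusted p = 0.00999) and by 27.9 in naive mice (SE 7.46; adjusted p = 0.0407).

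The Cish calls depended on which libraries were used, the naive one more than the AF9-experienced one, and so did the naive call at Socs3 described below. The AF9-experienced call did not hold when AF9-experienced PBS 3 was left out (adjusted p = 0.0569), and also without the 5 libraries with 2 or more chromosome Y peaks (difference 26.3; adjusted p = 0.0763). The naive call held when any 1 of 7 libraries was left out, and was lost without AF9-experienced LPS 2 or 4, AF9-experienced PBS 4, naive LPS 1, 2 or 3, or naive PBS 2, 3 or 4, with an adjusted p of up to 0.189 (without naive LPS 2). The authors' fold enrichment itself was not higher after LPS, at 7.52 to 13.8 in AF9-experienced LPS against 11.4 to 15.0 in the longer AF9-experienced PBS lists, and 9.46 to 11 in the longer naive LPS lists against 8.77 to 12.0 in the longer naive PBS lists. Relative to the library's own median fold it was 0.814 to 1.01 in AF9-experienced LPS against 0.615 to 0.772 in AF9-experienced PBS, and 0.858 to 0.962 in naive LPS against 0.632 to 0.682 in naive PBS. In the longer lists the region thus stood higher among the peaks of its own library, whose folds were lower in general after LPS.

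Next to it, 4.6 kb past Cish (chr9:107307340-107308137), lies a region chosen after its values were seen. It had 18.3, 37.1, 23.6, 28.1 and 0 in AF9-experienced LPS against 0 in all 4 AF9-experienced PBS libraries. It had 26.8, 0 and 3.72 in naive LPS against 0 in all 4 naive PBS libraries. A value above 0 was therefore seen only in LPS libraries, 6 of 8. The differences were 21.4 (SE 6.55; limma adjusted p = 0.0604) and 10.2 (SE 7.46; adjusted p = 0.559). The start of Cish (chr9:107295509-107297288), whose promoter is printed above, had 44.1 to 64.6 in AF9-experienced LPS against 28.6 to 53.3 in AF9-experienced PBS, and 55.1 to 63.3 in naive LPS against 42.5 to 62.0 in naive PBS. These overlap, and the differences of 10.3 (adjusted p = 0.370) and 6.92 (adjusted p = 0.698) did not pass.

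Socs3, the inhibitor that binds gp130 and JAKs and ends the IL-6 signal, was the gene with the most peaks, 7 to 16 per full list. Its region 5.7 kb upstream of the start (chr11:117975989-117976518) was at 0 in all 5 AF9-experienced LPS libraries, against 0, 25.8, 28.0 and 25.4 in AF9-experienced PBS 1 to 4. It was at 0 in all 3 naive LPS libraries, against 11.8, 35.0, 33.6 and 36.8 in naive PBS 1 to 4. The naive groups did not overlap, while AF9-experienced PBS 1, a short list, shared the value 0 with the LPS libraries. The region fell by 29.3 points in naive mice (SE 7.75; limma adjusted p = 0.0382), and differed by -19.8 in AF9-experienced mice (SE 6.81; adjusted p = 0.0979).

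The naive call at Socs3 was lost without AF9-experienced LPS 2, naive LPS 1, 2 or 3, or naive PBS 2, 3 or 4, with an adjusted p of up to 0.126 (without naive LPS 2). The AF9-experienced difference passed without AF9-experienced PBS 1 (adjusted p = 0.0196). In the full lists the peak ranked 19292 to 32561 in 5 of 5 AF9-experienced LPS libraries against 13751 to 14247 in 3 of 4 AF9-experienced PBS libraries. In naive mice it ranked 22041 to 23851 in 2 of 3 LPS libraries against 12071 to 16846 in 4 of 4 PBS libraries.

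The start of Socs3 (chr11:117968670-117970287), where the STAT motif printed above lies, differed in the other direction, without a call. It had 78.0, 77.5, 85.6, 81.2 and 83.0 in AF9-experienced LPS against 66.8, 73.8, 66.0 and 66.5 in AF9-experienced PBS. It had 85.0, 82.3 and 66.4 in naive LPS against 62.0, 70.6, 68.1 and 63.8 in naive PBS. The AF9-experienced groups did not overlap, and in naive mice the short list LPS 3 lay within the PBS range. The differences were 12.7 (SE 3.78; limma adjusted p = 0.0519) and 11.8 (SE 4.30; adjusted p = 0.156), neither past the threshold. Without naive LPS 3 both passed (adjusted p = 0.0198 and 0.0242), and the AF9-experienced one also passed without naive LPS 1 (adjusted p = 0.0488) or naive PBS 1 (adjusted p = 0.0364).

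Socs1 and Socs2 showed no call. SOCS1 inhibits JAKs, above all downstream of interferons, and its gene end (chr16:10784341-10786773) had 75.3 to 89.6 in AF9-experienced LPS against 77.5 to 82.6 in AF9-experienced PBS, and 78.7 to 92.8 in naive LPS against 83.9 to 95.4 in naive PBS. The groups overlap, and the differences were 2.37 (limma adjusted p = 0.762) and -2.13 (adjusted p = 0.865). A weak region 11.2 kb from Socs1 differed by 5.45 (adjusted p = 0.608) and -8.59 (adjusted p = 0.516). SOCS2 restrains growth hormone and STAT5 signalling, and its gene end (chr10:95415632-95418183) had 46.3, 41.0, 34.8, 39.4 and 31.0 in AF9-experienced LPS against 54.6, 51.6, 54.3 and 52.6 in AF9-experienced PBS. It had 37.4, 49.7 and 62.1 in naive LPS against 55.5, 65.7, 40.2 and 37.8 in naive PBS. The AF9-experienced groups did not overlap and the naive groups did. The differences were -14.8 (SE 6.64; adjusted p = 0.220) and -0.0849 (adjusted p = 1).

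**Figure D4:**
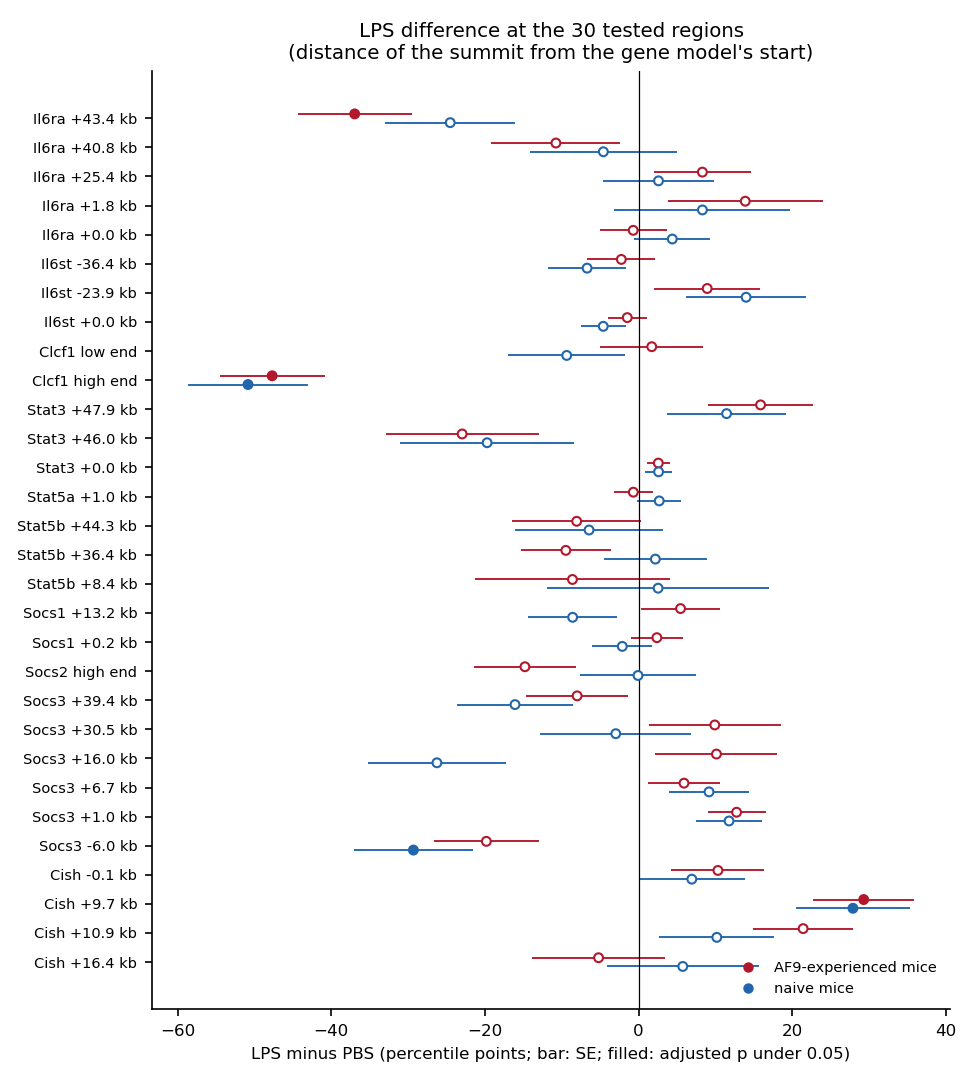
Difference in percentile rank, LPS minus PBS (horizontal axis, percentile points), for the 30 tested regions in AF9-experienced and naive mice, with bars of 1 SE and filled points for adjusted p under 0.05. The differences run from -47.7 to 29.3 in AF9-experienced mice and from -50.8 to 27.9 in naive mice.

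Whether earlier contact with MLL-AF9 marrow altered these regions was asked in 3 further contrasts, and none of the 30 regions passed in any of them. AF9-experienced minus naive after LPS called 0 of the 30 (background 0.0127%, 3 regions of all), and 0 had an unadjusted p under 0.05. AF9-experienced minus naive after PBS called 0 (background 0%), with 1 unadjusted p under 0.05. The interaction, which asks whether the LPS difference itself differs between AF9-experienced and naive mice, called 0 (background 0%), with 1 unadjusted p under 0.05. A p that misses the threshold does not show that the mice respond alike, since the median SE of the interaction over the 30 regions was 10.0 percentile points. At the 4 regions called after LPS the interaction was 3.14 (SE 10.4) at Clcf1, -12.4 (SE 11.3) at the Il6ra 3′ end, 9.497 (SE 10.3) upstream of Socs3 and 1.39 (SE 9.93) past Cish.

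The region with the smallest interaction p lies 11.6 kb past the end of Socs3 (chr11:117954069-117954460) and was chosen after its values were seen. It had 32.3, 14, 26.3, 3.75 and 26.0 in AF9-experienced LPS against 6.47, 25.6, 9.38 and 0 in AF9-experienced PBS. It had 7.84, 7.83 and 0 in naive LPS against 33.5, 12.5, 36.4 and 43.4 in naive PBS. The LPS difference was 10.1 in AF9-experienced mice, where the groups overlap, and -26.2 in naive mice, where they do not. The interaction of 36.4 had an adjusted p of 1 (limma).

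A second fit used the 13 longer lists, leaving out the 3 short ones, and ranked 59609 peaks per list, so that weaker peaks entered. It rests on 5 AF9-experienced LPS, 3 AF9-experienced PBS, 2 naive LPS and 3 naive PBS libraries. In AF9-experienced mice it called 6 of 72 regions higher and 8 lower after LPS, where 4.93% of all 70017 tested regions were higher and 5.53% lower. In naive mice it called 3 higher and 5 lower, where 3.91% of all were higher and 2.82% lower. The median difference over the 72 regions was -1.44 in AF9-experienced mice (all regions -0.862) and -0.580 in naive mice (all regions -0.755). All 4 regions named above as called kept their direction. The fit called Clcf1 (-24.2, adjusted p = 0.000354, and -25.8, adjusted p = 0.00244), the Il6ra 3′ end (-30.01, adjusted p = 0.00108, and -21.2, adjusted p = 0.0421) and the region past Cish (9.95, adjusted p = 0.00478, and 10.3, adjusted p = 0.0206) in AF9-experienced and in naive mice.

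At Il6st the longer lists brought up regions upstream of the start. The one 30.3 kb upstream (chr13:112433205-112433781) had 16, 16.1, 31.8, 14.4 and 28.1 in AF9-experienced LPS against 62.7, 57.8 and 57.9 in AF9-experienced PBS. It had 0 and 5.07 in naive LPS against 60.3, 50.3 and 49.7 in naive PBS. LPS libraries lay below PBS libraries throughout. It fell by 38.2 in AF9-experienced mice (SE 7.96; limma adjusted p = 0.00620) and by 50.9 in naive mice (SE 9.96; adjusted p = 0.00771). The one 25.8 kb upstream (chr13:112438014-112438308) was at 0 in all 7 LPS libraries, against 32.2, 56.3 and 31.4 in AF9-experienced PBS and 63.9, 48.9 and 35.4 in naive PBS. It fell by 40.0 (SE 8.76; adjusted p = 0.00822) and by 49.4 (SE 10.9; adjusted p = 0.0144). The one 36.0 kb upstream fell by 17.0 in AF9-experienced mice (adjusted p = 0.0419) and differed by -1.87 in naive mice (adjusted p = 0.907).

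Around Socs3 the longer lists showed neighbouring regions that went opposite ways. The region 4.1 kb upstream (chr11:117974466-117975115) had 60.1, 64.1, 42.6, 45.7 and 40.4 in AF9-experienced LPS against 9.52, 5.95 and 23.3 in AF9-experienced PBS. It had 57.4 and 63.8 in naive LPS against 0, 22.7 and 23.6 in naive PBS. LPS libraries lay above PBS libraries, and the region rose by 37.6 (SE 9.07; limma adjusted p = 0.0142) and 45.1 (SE 11.3; adjusted p = 0.0254). The region 5.7 kb upstream had 53.5, 60.8, 67.6, 52.7 and 45.4 in AF9-experienced LPS against 76.2, 76.9 and 76.1 in AF9-experienced PBS. It had 60.0 and 63.0 in naive LPS against 79.2, 78.7 and 79.8 in naive PBS. Here LPS libraries lay below, with differences of -20.4 (adjusted p = 0.00647) and -17.7 (adjusted p = 0.0544). The start of Socs3 rose by 3.93 (SE 0.957; adjusted p = 0.0150) and 5.17 (SE 1.20; adjusted p = 0.0174). The 3′ end of Socs3 (chr11:117965480-117965934) was at 0 in all 7 LPS libraries, against 7.89, 36.0 and 23.1 in AF9-experienced PBS and 44.2, 60.9 and 42.4 in naive PBS. It fell by 49.1 in naive mice (adjusted p = 0.0101) and differed by -22.3 in AF9-experienced mice (adjusted p = 0.0860).

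The second region past Cish, at 0 in the PBS libraries of the shorter lists, had 73.8, 79.8, 75.5, 77.0 and 51.4 in AF9-experienced LPS against 27.7, 44.7 and 36.1 in AF9-experienced PBS in the longer lists. It had 76.5 and 65.3 in naive LPS against 49.9, 41.3 and 38.6 in naive PBS. It was thus open in PBS mice too, at a lower rank. It rose by 35.3 in AF9-experienced mice (SE 6.68; limma adjusted p = 0.00335) and differed by 27.7 in naive mice (adjusted p = 0.0540). Further regions past the threshold in AF9-experienced but not in naive mice were one 13.4 kb past Socs3 (-34.3, adjusted p = 0.0220), one inside Stat3 3.9 kb from its start (-30.7, adjusted p = 0.00690), one inside Stat5a (37.3, adjusted p = 0.0225) and one inside Stat5b (36.4, adjusted p = 0.0391). In naive mice these differed by -14.3, -12.2, 33.5 and 1.37 in that order, with adjusted p of 0.490, 0.407, 0.110 and 0.981, and the smallest adjusted p of the interaction over the 72 regions was 0.992.

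**Figure D5:**
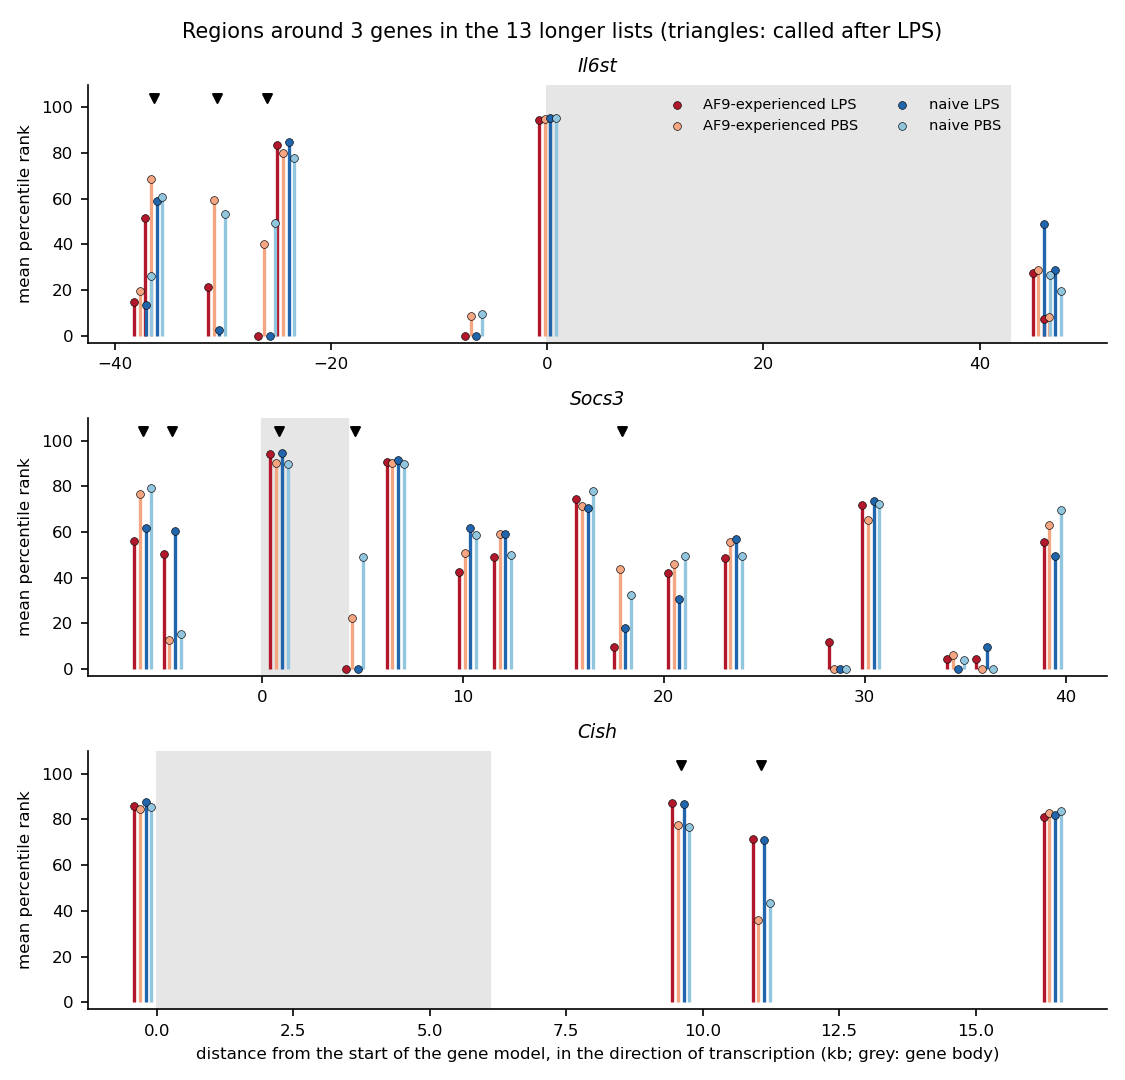
Mean percentile rank per group (vertical axis, 0 to 100, among 59609 peaks in the 13 longer lists) of each region of Il6st, Socs3 and Cish against its distance from the start of the gene model in kb, with triangles at regions called after LPS. Upstream of Il6st the LPS means lie below the PBS means at 30.3 and 25.8 kb, while at Socs3 they lie above at 4.1 kb and below at 5.7 kb.

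The rest of the pathway was read in lists that hold none of the 10 genes. Of the 11 tested regions of the 4 JAK kinase genes, 1 (9.09%) was called higher in AF9-experienced mice, where 3.44% of all regions were, and it lies inside Jak2, the kinase that serves gp130 and many cytokine receptors. Its mean was 45.1 ± 8.65 in AF9-experienced LPS (SD, n = 5) against 4.52 ± 7.12 in AF9-experienced PBS (n = 4), a difference of 40.5 (SE 7.97; limma adjusted p = 0.00398). In naive mice no JAK gene was called, and this region averaged 42.0 ± 6.48 in LPS (n = 3) against 16.3 ± 16 in PBS libraries (n = 4). The 4 other STAT genes (8 regions) had no call, nor did the 11 tested genes (27 regions) of 14 listed further inhibitors.

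Of 18 regions at the 10 tested genes among 16 further ligands and receptors of the IL-6 family, 1 (5.56%) was called higher in both kinds of mouse, against 3.44% of all regions in AF9-experienced and 2.00% in naive mice. It belongs to Osm, which encodes oncostatin M, a ligand of gp130. Its region 3.7 kb away averaged 49.4 ± 12.7 in AF9-experienced LPS (SD, n = 5) against 9.45 ± 18.9 in AF9-experienced PBS (n = 4), a difference of 40.0 (SE 8.54; limma adjusted p = 0.00704). It averaged 47.4 ± 4.93 in naive LPS (n = 3) against 0 in all 4 naive PBS libraries, a difference of 47.4 (SE 9.72; adjusted p = 0.00801). Osm is also a textbook STAT5 target. Of 61 regions at 17 tested target genes of STAT3 or STAT5, 6 (9.84%) at 5 genes were called higher in AF9-experienced mice, against 3.44% of all regions. In naive mice 2 (3.28%) at 2 genes were, against 2.00% of all, and none was called lower in either. Counts this small do not set the lists apart from the background. The genes were Osm, Id1, an inhibitor of differentiation (47.8, adjusted p = 0.000408, and 35.2 in naive mice, adjusted p = 0.0197), Bcl2l1, a survival gene (22, adjusted p = 0.0475), Hif1a, the hypoxia factor (24.3, adjusted p = 0.0405), and Junb, an AP-1 subunit (16.7, adjusted p = 0.0318). The median difference over the 61 regions of these targets was 3.65 in AF9-experienced and 3.88 in naive mice, beside -0.178 and 0 over all regions. None of the genes in these lists was called between AF9-experienced and naive mice.

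For each called region, the region of another gene with the most similar values over the 16 libraries was looked up. The Clcf1 region was most like one near Zyx (mean absolute difference 4.22 percentile points), the Il6ra 3′ end like one inside Zmiz1 (2.98), the region upstream of Socs3 like one near Pck1 (3.14) and the region past Cish like one inside Trim7 (5.44). Each is the closest of the tested regions outside the 10 genes, and likeness of rank says nothing of shared control.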

How the data were processed

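ATAC-seq peak lists of sorted HSPCs were used, 1 per biological replicate; the labels describe 32 samples, 2 technical libraries for each of the 16 replicates. They name both Omni-ATAC and a Chromium chemistry, and which one made each list is not given in the sources used here. Per the submitters' processing notes, FastQC, Trim Galore, BWA, Picard and MACS3 (no versions) and build GRCm38 were used. The deposited lists give, per peak, the authors' fold enrichment over local background (a ratio) and the authors' -log10 p and -log10 q. These are not scaled between libraries, so they served only to rank and describe peaks within a list, and read depth is unknown.

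Each list was shortened to its 19100 strongest autosomal peaks, overlapping peaks (1 bp or more) were merged, and regions in at least 3 lists were tested on percentile ranks with limma 3.58.1 (R 4.3.3; trend and robust options, 1 mean per group, all 16 libraries). The model was tested on simulated data. P-values were adjusted by Benjamini-Hochberg over all 23554 regions and measure the spread between the labelled replicates. Gene models were RefSeq GRCm38.p6 (20661 autosomal protein-coding); strand came from the promoter table where it lists the gene. Alternatives are given with the sensitivity results.

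The 10 genes, the pathway lists and the tests were chosen with earlier results of these data known. Named were all 10 genes, each called region, each gene's strongest gene-end region, its region with the smallest p in each LPS contrast, called genes of the pathway lists, and the region most like each called one. Sequences of the called distal regions were not analysed here, and results at some marker genes are not reported here.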

Additional observations from a re-analysis of the deposited data

Results flagged for a closer look

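In the 51 groups of 4 or 5 libraries over the 18 named regions, 8 libraries stood apart from the rest of their group by Dixon's test at the 95% level. The usual rate of about 1 in 20 groups flagged by chance does not apply here. Values stop at 0, the same libraries recur in many groups, and a single value above 0 beside values of 0 is always flagged. Of the 8, 7 were in the short lists AF9-experienced PBS 1 and naive PBS 1. AF9-experienced PBS 1 stood apart at both regions inside Stat3 (13.7 at 4.4 kb from the end, where the other 3 AF9-experienced PBS libraries were at 0, and 23.3 at 6.6 kb), 5.7 kb upstream of Socs3 (0), 11.2 kb from Socs1 (0) and at the start of Cish (28.6). Naive PBS 1 stood apart at the Clcf1 region (33.7) and 5.7 kb upstream of Socs3 (11.8). AF9-experienced PBS 2, a longer list, stood apart at the start of Socs3 (73.8).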

How the results depend on the processing

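Of 2473 values recomputed under another setting, 2406 stayed on their side of the threshold, and 159 of these, called under neither setting, changed sign. Of the rest, 48 lost a call, 18 gained one and 1 took the other sign. The values cover the 18 named regions in every contrast, and most were uncalled in the main fit. The total therefore says little of how firm the 3 calls in each kind of mouse are. The 3 calls among the 30 regions in AF9-experienced mice became 0 under 5 settings, which tested other numbers of regions of these genes. These were ranking by fold enrichment (23 regions), lists of 9550 peaks (13) and 50% overlap (28). The others were presence in full lists (85) and presence of a peak of -log10 q 5 or more (77). Calls over all regions also fell under these 5 settings in both kinds of mouse. They became 4 with only the 2 groups compared, 8 with library weights and 14 without the 3 short lists. With the median fold enrichment as a covariate, added after seeing the data, the 3 calls became 5 (all regions 1037 higher and 609 lower). In naive mice the 3 calls (all regions 471 higher and 287 lower) became 0 under the same 5 settings. They became 1 with only the 2 groups compared (all regions 91 and 49) and 6 with library weights (1731 and 1491). They became 4 with the fold covariate (689 and 443). Without the short lists 8 of 72 were called (all 70017 regions 2738 and 1976). A region without a peak in lists of 9550, or with a peak in every full list, could not be called in those settings. Leaving out 1 library at a time gave 2 to 5 calls in AF9-experienced mice (all regions 433 to 999 higher and 158 to 637 lower). It gave 1 to 3 in naive mice (all regions 240 to 550 higher and 110 to 564 lower). Contrasts of AF9-experienced with naive mice and the interaction gave 0 under every setting run. The naive Clcf1 difference took the other sign for presence of a peak of -log10 q 5 or more, at 0.25 (limma adjusted p = 0.813). That value is a difference in the share of lists with such a peak, and is not in percentile points. The causes were not tested. Without the 5 libraries with 2 or more chromosome Y peaks, also added after seeing the data, AF9-experienced mice again had 3 calls (all regions 882 higher and 220 lower). The region past Cish was lost and the start of Socs3 gained (limma adjusted p = 0.0321). The naive contrast could then not be fitted, as no naive LPS library was left.

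Between same-numbered libraries, 21 correlations of their deviations from the group means were -0.215 to 0.231. Libraries with different numbers were not compared in this way, so whether the replicate numbers pair the libraries cannot be told from these values. With the number as a replicate block, calls were 4 in AF9-experienced mice (all regions 622 higher and 268 lower) and 1 in naive mice (344 and 161). Peak lists set the limits, as a rank carries no depth and a weak peak in a short list is lost. Naive LPS had 3 libraries, 1 of them short.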
